A study of Mus musculus with 2 samples.

Results

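The nuclei described here came from mouse mammary organoids and are those in which no single lineage led among lists of marker genes. Of 6175 nuclei with deposited peak counts, 5509 held at least 20000 counts and were kept, and 993 of these met the rule, 489 in the doxycycline library (DOX) and 504 in the ethanol library (EtOH). Each kept nucleus was scored for 4 gene lists. A score is the counts in peaks on the list's gene bodies and the 2 kb upstream of them, divided by the nucleus' total and then by the mean of that share over all kept nuclei of both libraries. The immune list held Ptprc, Tyrobp, Csf1r, C1qa, C1qb and Adgre1, the luminal progenitor list Kit, Elf5, Csn3, Aldh1a3 and Wfdc18, the hormone-sensing list Esr1, Pgr, Prlr, Cited1, Foxa1 and Tnfsf11, and the basal list Krt14, Krt17, Trp63, Myh11, Oxtr and Mylk. A nucleus was selected on these measured scores, and entered the set when its immune score was under 1.25 and its highest lineage score was under 1.2 times the next. The other nuclei under the immune limit are called by the list that led in them: progenitor-list, hormone-list and basal-list nuclei. Those that met the rule are called no-lead nuclei (in the plots, no dominant list or members).

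Both libraries came from primary organoids of C57BL/6J mice with the genotype shTRPS1.34 ki/+; CAG-rtTA3 tg/+, in which doxycycline switches on a short hairpin RNA against Trps1. The reverse transactivator rtTA3 is driven by the ubiquitous CAG promoter, so the hairpin is not limited to one epithelial lineage. The DOX organoids received doxycycline for 7 days and the EtOH organoids received the ethanol vehicle, and cells of several mice were mixed before nuclei were loaded, so animals cannot be separated. There was 1 library per group, so no difference between DOX and EtOH below has a replicate check, all intervals are 95% intervals for counting error only, and effects of doxycycline itself and of the hairpin cannot be told apart.

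The mammary epithelium has an outer layer of contractile basal or myoepithelial cells, which express Krt14 and Trp63, and an inner luminal layer. Luminal cells divide into progenitors of the milk-secreting lineage, marked by Kit and Elf5, and hormone-sensing cells, which carry the oestrogen and progesterone receptors Esr1 and Pgr and depend on the pioneer factor Foxa1. TRPS1 is a GATA-type zinc finger protein that binds GATA sequences and acts mainly as a repressor. The assay (scATAC-Seq) counts cuts by a transposase, which inserts where chromatin is open, so the values below are accessibility and not RNA.

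The lead of one list over the next was a continuous measure with no gap at the limit. In the DOX library 276 nuclei had a ratio of the highest to the next score of 1 to 1.1, 213 of 1.1 to 1.2 and 202 of 1.2 to 1.3. In the EtOH library the same steps held 273, 231 and 236 nuclei. The no-lead nuclei nearest the limit had ratios of 1.197 to 1.199 in both libraries, and the nearest nuclei outside it 1.202 to 1.205 in DOX and 1.2 in EtOH. The no-lead nuclei are thus one end of a graded distribution.

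**Figure D1:**
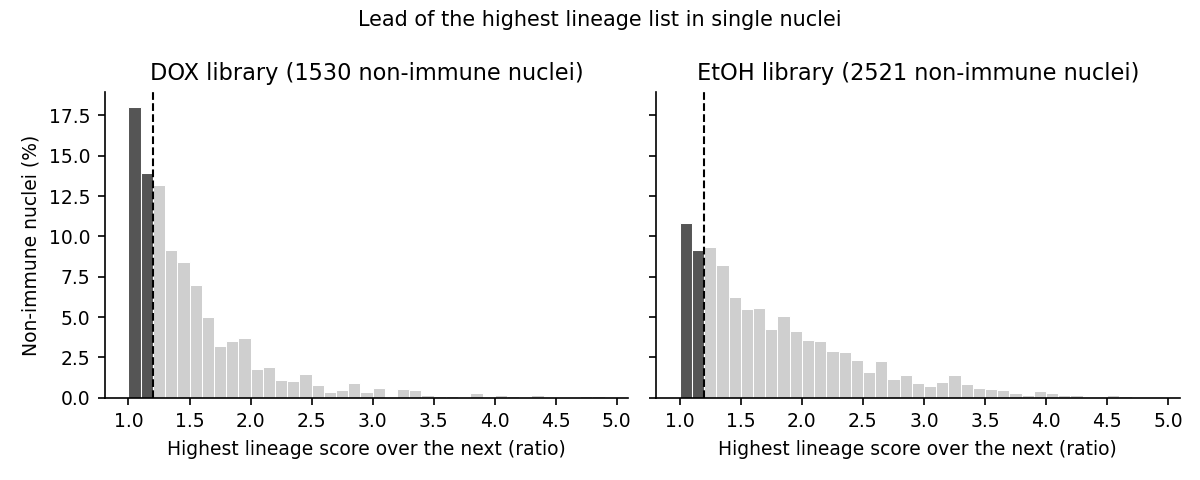
Distribution of the ratio of the highest to the next lineage score in kept non-immune nuclei of each library (x axis, ratio without unit; y axis, percent of nuclei), with the limit of 1.2 as a dashed line and no-lead nuclei in dark bars. The nuclei number 276, 213 and 202 in the first steps in DOX and 273, 231 and 236 in EtOH, with no gap at the limit.

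Basal genes were the most frequent partner in a tie. The luminal progenitor and basal lists led together in 220 of 489 no-lead nuclei in DOX (45.0%, 95% interval 40.5 to 49.5) and in 231 of 504 in EtOH (45.8%, 41.4 to 50.3). The hormone-sensing and basal lists shared the lead in 172 (35.2%) and 164 (32.5%). The luminal pair, progenitor and hormone-sensing, was the least frequent at 97 (19.8%) and 109 (21.6%). All 3 lists lay within the limit in 66 nuclei (13.5%) in DOX and 51 (10.1%) in EtOH. These values come from the scores that chose the nuclei and are descriptions.

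Ties at a high level and ties at a low level were both present. Both leading lists stood at 1.5 or more in 125 DOX nuclei (25.6%) and 133 EtOH nuclei (26.4%), whereas the highest list was below the series mean of 1 in 37 and 34. Across no-lead nuclei the median progenitor score was 1.23 in DOX and 1.25 in EtOH, the median basal score 1.3 in both, and the median of the lowest of the 3 scores 0.87 and 0.78. Their immune scores reached at most 1.02 in DOX and 1.2 in EtOH, and 151 and 202 of them had no count on the immune list at all.

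Few molecules stand behind one nucleus' score. A DOX no-lead nucleus had a median of 12 counts on the progenitor list, 22 on the hormone-sensing list and 35 on the basal list, and an EtOH nucleus 10, 17 and 29. Since 1 fragment usually gives 2 counts, the 12 counts equal about 6 fragments, whose exact Poisson interval runs from 36.7% to 218% of the value. A lead of 1.2 between lists is smaller than that interval. When each nucleus was thinned at random to 20000 counts and scored again, 180 of 489 DOX no-lead nuclei (36.8%) and 185 of 504 EtOH no-lead nuclei (36.7%) met the rule again. Of the nuclei led by one list, 245 of 1041 (23.5%) in DOX and 355 of 2017 (17.6%) in EtOH met it after thinning. Giving each gene of a list equal weight left 202 (41.3%) and 206 (40.9%) of the original no-lead nuclei in the set. The thinned depth is below the median of no-lead nuclei, 89630 counts in DOX and 74408.5 in EtOH, so thinning does not measure stability at full depth. Membership of a single nucleus was not stable under thinning or under equal weights. The results below are therefore sums and shares over all no-lead nuclei.

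The no-lead nuclei were the deepest class in DOX and in the middle of the classes in EtOH. Their median was 89630 counts in DOX, against 78265 to 83728 in the single-list classes, and 74408.5 in EtOH, against 66847.5 to 80361. Nuclei with more than 2 times the median counts of their library made up 31 of 489 (6.34%, 4.35 to 8.88) in DOX and 29 of 504 (5.75%, 3.89 to 8.16) in EtOH. The same share was 2.78% to 3.59% over the single-list classes in DOX and 2.71% to 6.36% in EtOH. No doublet caller was run, and the part of droplets with nuclei of 2 lineages in the set was not tested. Of all cell barcodes, 23 occurred in both libraries, 4 of them as no-lead nuclei in both.

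The epithelial part of the name held in these nuclei. All 10 of 10 pan-epithelial genes were at least 2-fold more accessible in no-lead nuclei than in the nuclei above the immune limit, in both libraries, where 16.8% of 16911 protein-coding genes passed that limit. The tight junction gene Cldn3 stood 4.37 log2 units higher in DOX and 3.42 in EtOH, Grhl2, a regulator of epithelial junctions, 3.56 and 3.04, and the adhesion gene Epcam 1.89 and 2.02. Of 8 immune genes outside the rule, 7 were at least 2-fold lower in both libraries against 7.96% of all genes. The exception was the chemokine receptor gene Cx3cr1 at -0.63 in DOX and -0.64 in EtOH. Summed over these 8 genes, no-lead nuclei held 383 CPM (counts scaled to 1000000 counts in shared regions) in DOX and 381 in EtOH, and immune nuclei 1021 and 1015.

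Genes of other tissue cells were partly accessible in no-lead nuclei. Cd2, Cd79a, Lum and Lep had no count in any class of either library, immune nuclei included, so they carry no information here. The lymphocyte list summed to 7.65 CPM in DOX and 7.36 in EtOH no-lead nuclei, against 14.5 and 14.9 in immune nuclei. Its gene Ms4a1 had 0.25 and 0.45 CPM against 11.4 and 11.8. Cd3e, a part of the T cell receptor complex, had 4.64 and 4.17 CPM against 1.99 and 2.07, and Cd3g 1.41 and 1.36 against 0.44 and 0.43. The single-list classes had 4.35 to 5.74 CPM over Cd3e in DOX and 3.31 to 5.10 in EtOH, so its level was not particular to no-lead nuclei. The fibroblast list summed to 82.3 CPM in DOX and 82.6 in EtOH, near the 78.1 and 78.3 of immune nuclei. Its receptor genes Pdgfra and Pdgfrb stood at 55.0 and 21.3 CPM in DOX and 56.1 and 19.3 in EtOH, and the matrix gene Dcn at 2.16 and 2.47. The endothelial list summed to 135 and 159 CPM against 238 and 222 in immune nuclei, with the junction gene Cdh5 at 3.64 and 2.71, Tek at 33.9 and 31.7 and Pecam1 at 77.0 and 102. The adipocyte list summed to 41.5 and 49.6 CPM against 46.2 and 44.8, of which the lipid droplet gene Plin1 made up 26 and 33.8. The part of such cells in the results below was not tested.

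Genes outside the rule could not decide whether a lineage leads in these nuclei. Each nucleus was scored again on 3 lists of 7 genes each that the rule did not use: Cd14, Ltf, Plet1, Csn2, Lalba, Rspo1 and Itga2 for progenitors, Ly6a, Prom1, Areg, Tbx3, Wnt4, Greb1 and Ptn for hormone-sensing cells, and Krt5, Acta2, Cnn1, Tagln, Snai2, Cdh3 and Nrg1 for basal cells. By the same limit of 1.2, no held-out list led in 177 of 489 DOX no-lead nuclei (36.2%, 31.9 to 40.6) and in 165 of 504 EtOH no-lead nuclei (32.7%, 28.7 to 37.0). In DOX the share was 36.5% in progenitor-list, 29.5% in hormone-list and 35.7% in basal-list nuclei, and in EtOH 36.6%, 28.6% and 31.6%. The intervals of no-lead nuclei overlapped those of every class. These lists did not mark the classes well: in DOX progenitor-list nuclei the held-out basal list was the highest in 44.0% and the held-out progenitor list in 20.1%. The nuclei are called by the rule, not by a cell type.

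No held-out list was the highest in a majority of no-lead nuclei, nor of progenitor-list or basal-list nuclei, in either library. In DOX basal-list nuclei the progenitor, hormone-sensing and basal lists were the highest in 15.8%, 35.0% and 49.2%. Such shares therefore cannot show whether no-lead nuclei are a mixture of lineages. In no-lead nuclei the hormone-sensing list was the highest in 44.4% in DOX and 38.3% in EtOH, and the basal list in 41.3% and 32.1%. The progenitor list was the highest in 14.3% (11.3 to 17.7) and 29.6% (25.6 to 33.8). In EtOH progenitor-list nuclei it was the highest in 41.5%. The lower DOX share of that list occurred in both kinds of nuclei. These scores again rest on few counts, a median of 12 on the progenitor list in both libraries, 24 and 19 on the hormone-sensing list, and 25 and 18.5 on the basal list. The held-out progenitor list was also the highest in 78.5% of DOX immune nuclei and so is not particular to progenitors.

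Whether no-lead nuclei were more frequent in DOX depended on what they were counted against. Of the nuclei below the immune limit they made up 489 of 1530 in DOX (32.0%, 29.6 to 34.4) and 504 of 2521 in EtOH (20.0%, 18.4 to 21.6). Of all kept nuclei they made up 17.9% of 2732 and 18.1% of 2777, since 1202 DOX nuclei but only 256 EtOH nuclei exceeded the immune limit. Among nuclei below the limit, progenitor-list nuclei were 23.5% in DOX and 34.4% in EtOH, hormone-list nuclei 16.4% and 32.4%, and basal-list nuclei 28.2% and 13.2%.

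**Figure D2:**
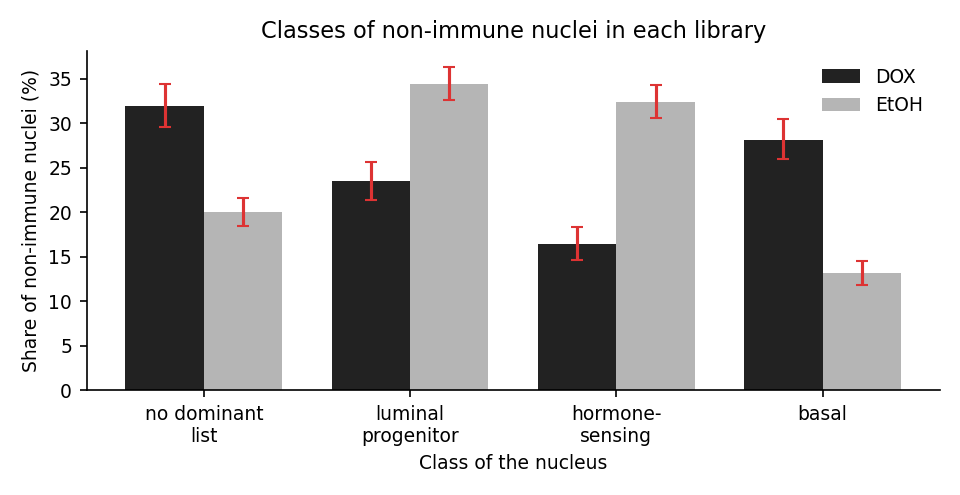
Share of each class among kept non-immune nuclei (y axis, percent, from 0) in the DOX and EtOH libraries, with 95% Clopper-Pearson intervals as bars. No-lead nuclei stand at 32.0% in DOX and 20.0% in EtOH.

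Depth moved with this share in one library. In DOX, no-lead nuclei were 26.9% of the 510 shallowest non-immune nuclei, 31.0% of the next 510 and 38% of the deepest 510. In EtOH the corresponding shares were 19.9%, 20.1% and 20.0%. After thinning to 20000 counts the shares were 28.3% in DOX and 21.8% in EtOH, a smaller gap. Thinning also left fewer counts on each list, so equal depth and added counting noise cannot be told apart here.

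No-lead nuclei lay inside the range of the single-list classes in most regions compared and outside it by less than 1.5-fold in nearly all others. They lay between the lowest and the highest class in 70.5% of the regions compared in DOX and 83.4% in EtOH. Across shared regions (regions with a peak of both libraries, outside the gene bodies of the rule's lists), only 67 of 85091 (0.0787%) were at least 1.5-fold above the highest or below the lowest of the 3 classes in DOX, 59 above and 8 below. In EtOH it was 18 of 81794 (0.022%), 16 above and 2 below. Regions were compared only where the no-lead nuclei themselves held at least 100 counts. This minimum removes regions in which they are low. Regions below the range are thus undercounted, and the split of above and below is partly set by the minimum. For scale, each single-list class held against the other classes in the same way gave 0.654% for progenitor-list, 19.9% for hormone-list and 2.03% for basal-list nuclei in DOX, and 5.21%, 40.9% and 4.81% in EtOH. No region of 72924 was outside the range in the same direction in both libraries.

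The summed profile was close to a weighted mean of the 3 classes. A non-negative least squares fit gave weights of 0.51 for progenitor-list, 0.11 for hormone-list and 0.39 for basal-list nuclei in DOX, and 0.50, 0.20 and 0.30 in EtOH. The correlation of the fitted with the measured profile over 174743 regions was 0.997 and 0.998. Progenitor-list nuclei alone gave 0.995 and 0.990, basal-list nuclei 0.994 and 0.990, and hormone-list nuclei 0.972 and 0.924. The progenitor-list and basal-list profiles correlated with each other at 0.991 and 0.984. The weights are not read as shares of cells. These correlations are across regions that share libraries, depth and peak calls, and are descriptions.

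The 3 regions named for standing above all classes in both libraries missed the 1.5-fold limit. They were not drawn from every chromosome, so other regions may stand higher. At chr3:68825202-68825796 no-lead nuclei held 5.26 CPM in DOX and 3.46 in EtOH, where the highest class held 3.92 and 2.39. At chr5:148758428-148759520 the log2 ratio to the highest class was 0.42 in both, and at chr14:55274519-55275475 it was 0.57 in DOX and 0.41 in EtOH. All 3 are intergenic in GRCm38 (mm10), and none is described further.

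Genes gave the same picture. Compared with the mean of the 3 classes, 0 of 16410 protein-coding genes (0%) were at least 1.5-fold higher in no-lead nuclei in both libraries, and 13 (0.0792%) were at least 1.5-fold lower. From the 5th to the 95th percentile of genes the log2 ratio ran from -0.19 to 0.16 in DOX and from -0.20 to 0.17 in EtOH. Among the 3 classes, all 13 lower genes had their highest level in hormone-list nuclei in both libraries. Of the 13, 8 were at or above the lowest class in both. Immune nuclei were not part of this comparison, and some of these genes were more accessible there. March1, a membrane ubiquitin ligase gene, had 7.40 CPM in DOX no-lead nuclei against 8.06 in progenitor-list, 24.1 in hormone-list and 8.0 in basal-list nuclei. In EtOH it had 9.78 against 5.57, 36.2 and 6.62. Immune nuclei had 117 CPM over March1 in DOX and 114 in EtOH, above all of these. Hrasls, a phospholipase-family gene, stood at -0.67 in DOX and -0.61 in EtOH, and Rimbp2 at -0.59 and -0.70. In DOX, March1 was close to its progenitor-list and basal-list levels, and in EtOH it lay between those and the hormone-list level. The number of such genes depended on the settings: it was 2 at a lead limit of 1.1 and with scores over the mean of the own library, 1 with scores over shared regions and with equal weight per gene, and 0 after thinning.

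The other named genes did not reach the limit in both libraries. Klb, the co-receptor of FGF hormones, stood at -0.53 in DOX and -0.75 in EtOH, and the protease gene Tmprss11f at -0.52 and -0.67. The highest ratios were those of Olfr691 (0.42 and 0.44), H1fnt (0.36 and 0.46), Slc6a18 (0.37 and 0.33), A2m (0.47 and 0.33) and C4bp (0.40 and 0.30). None of the genes of the lists below that had enough counts passed the limit against the 3 classes. The muscle gene Myom2, with 56 counts in DOX and 120 in EtOH no-lead nuclei, had too few for the comparison and stood at -1.42 and -1.07.

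The genes of the rule had intermediate levels. The luminal milk gene Csn3 had 26.8 CPM in DOX and 26.7 in EtOH no-lead nuclei, below the 52.2 and 57.9 of progenitor-list nuclei. Esr1 had 85.5 and 90.6 CPM, below the 152 and 190 of hormone-list nuclei, and Krt14 had 57.3 and 50.9, below the 81.4 and 74.8 of basal-list nuclei. The rule fixes this order, so it is a description.

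The neighbours of no-lead nuclei came from all 3 lineage classes in both libraries. Each nucleus was placed among its 15 nearest neighbours in its own library, by latent semantic indexing of shared regions with the rule's genes left out. In EtOH the neighbours of no-lead nuclei were progenitor-list in 41.0%, no-lead in 22.2%, hormone-list in 21% and basal-list in 15.2%. In DOX they were no-lead in 36.1%, basal-list in 25.9%, progenitor-list in 24.6% and hormone-list in 12.8%. This makeup is to be read against the classes' own shares of non-immune nuclei. In EtOH those were 34.4% progenitor-list, 20.0% no-lead, 32.4% hormone-list and 13.2% basal-list, and in DOX 32.0% no-lead, 28.2% basal-list, 23.5% progenitor-list and 16.4% hormone-list. Hormone-list nuclei were thus less frequent among the neighbours than among all non-immune nuclei in both libraries.

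A majority of neighbours (at least 8 of 15) of one lineage class was rare in DOX and frequent in EtOH. No lineage had a majority around 407 of 489 DOX no-lead nuclei (83.2%, 79.6 to 86.4) and 139 of 504 EtOH no-lead nuclei (27.6%, 23.7 to 31.7). The same held in DOX for progenitor-list nuclei at 83.3% and basal-list nuclei at 72.4%, while hormone-list nuclei were at 46.6%. In EtOH these classes were at 20.6%, 33.7% and 6.49%. The difference between the libraries was thus shared with the single-list classes. Single-list nuclei numbered 1041 of 1530 non-immune nuclei in DOX and 2017 of 2521 in EtOH, and the part of this in the majorities was not tested.

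**Figure D3:**
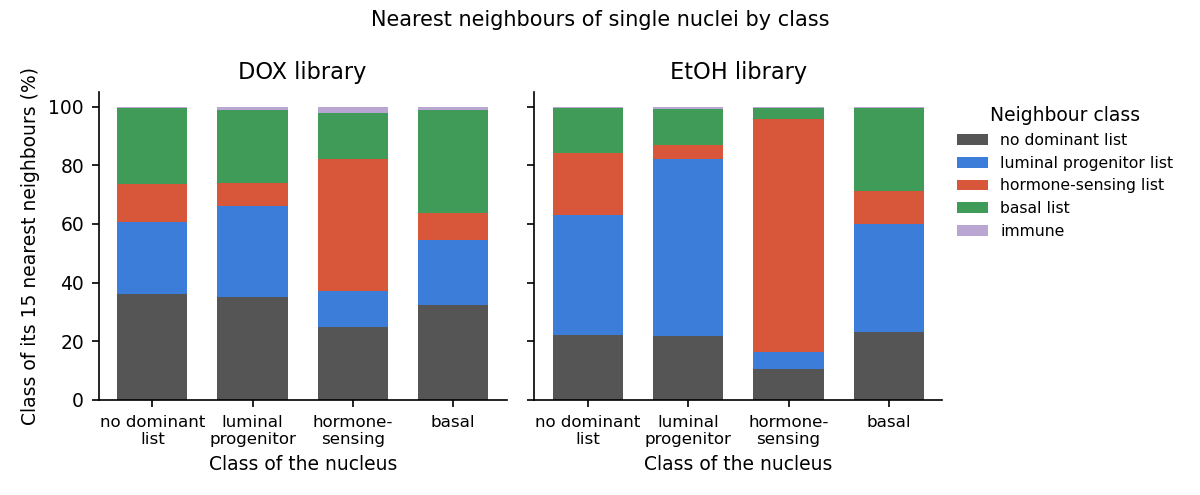
Makeup of the 15 nearest neighbours of the nuclei of each class (x axis) in each library (y axis, percent of neighbours; colours, class of the neighbour). Neighbours of no-lead nuclei in EtOH were progenitor-list in 41.0% and hormone-list in 21%, and in DOX no-lead in 36.1% and hormone-list in 12.8%.

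In EtOH the neighbours of a no-lead nucleus differed with its tie. Ties of the progenitor and basal lists had 56.3% progenitor-list neighbours, and ties of the hormone-sensing and basal lists had 36.1% hormone-list neighbours. The rule's genes were left out of the neighbour search, but the neighbours' classes were set by the same lists, so this is a description.

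Sites for GATA factors differed between the libraries within the no-lead nuclei. A motif deviation is the percent by which counts in regions holding a motif exceed or miss the number expected from regions of like GC content, with all kept nuclei as the reference. Regions with a GATA string were at 6.15% (6.06 to 6.23) in DOX no-lead nuclei and at -6.01% (-6.10 to -5.92) in EtOH no-lead nuclei, 12.2 percentage points apart. Progenitor-list nuclei went from -9.47% in EtOH to 5.18% in DOX and basal-list nuclei from -6.06% to 6.29%, differences of 14.7 and 12.4 points. Hormone-list nuclei stood at 3.59% and 8.16%, a difference of 4.57 points. The GATA difference was therefore not particular to nuclei without a leading list.

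Nearly all DOX no-lead nuclei lay above the GATA reference, which is set by all kept nuclei of both libraries. A GATA deviation over 0 was found in 468 of 489 DOX nuclei (95.7%, 93.5 to 97.3) and in 104 of 504 EtOH nuclei (20.6%, 17.2 to 24.4). A deviation over 5 was found in 347 DOX (71.0%) and 34 EtOH nuclei (6.75%), and one under -5 in 11 (2.25%) and 338 (67.1%). By tie, the EtOH medians were -9.94% for progenitor and basal, -6.94% for progenitor and hormone-sensing, and -1.34% for hormone-sensing and basal. The DOX medians of the same ties were 6.28%, 6.18% and 7.11%, close to each other. Of progenitor-list, hormone-list and basal-list nuclei, 90.0%, 98.0% and 97.7% were over 0 in DOX. In EtOH the shares of these classes were 2.07%, 82.0% and 19.6%.

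Of the other 15 motifs searched, 14 differed by less between the libraries. The exception was the palindrome of NFI factors, at 16.9% in DOX and 3.48% in EtOH, over 215 regions. For TEAD, the DNA partner of YAP, the deviation of no-lead nuclei was 14.3% in DOX and 9.73% in EtOH, and for SOX factors 11.1% and 9.38%. RUNX strings were at 3.57% and -5.24%. FOX strings, which Foxa1 can bind, were at -2.58% and 3.98%, with hormone-list nuclei at 12.2% and 28.7%. AP-1 strings were at -4.18% and -2.18%. Strings of the epithelial regulators of the GRHL family were at 12.6% and 10.5%, and those of p63, the basal regulator encoded by Trp63, at -6.22% and -5.36% over 1449 regions. Sites of CTCF, which bounds chromatin loops, were at -2.67% and -0.456%, and those of the immune factor PU.1 at -24.0% and -21.7%.

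**Figure D4:**
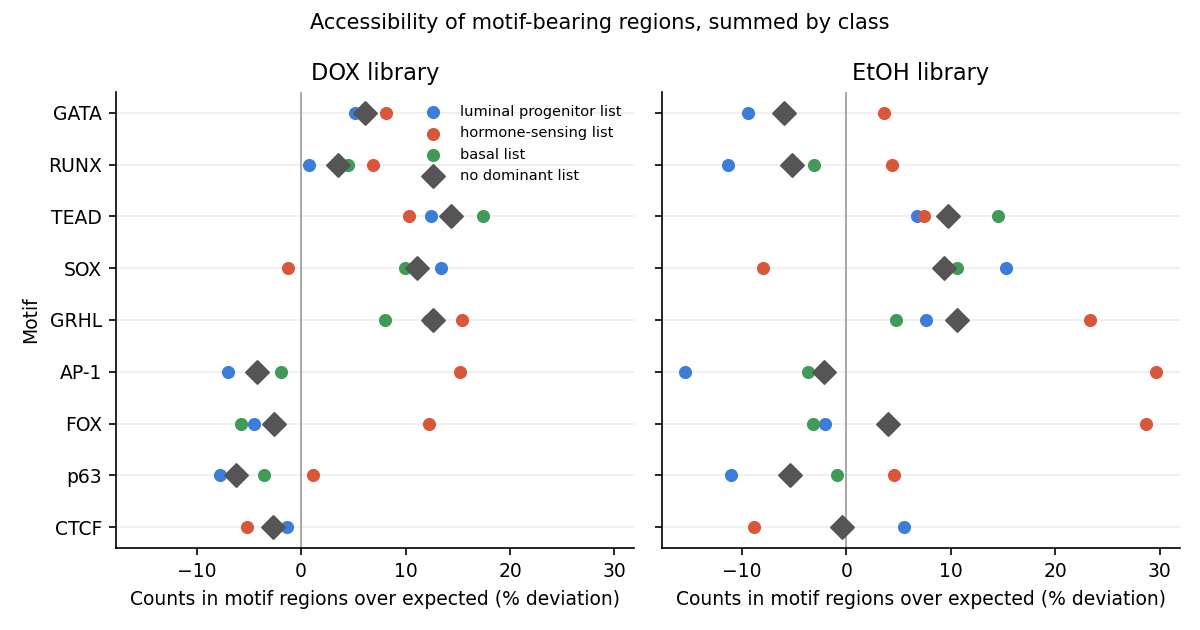
Motif deviation in percent of the counts expected at like GC content (x axis) by motif (y axis) and library, with diamonds for no-lead nuclei and circles for the single-list classes. GATA strings in no-lead nuclei were at 6.15% in DOX and -6.01% in EtOH, and FOX strings at -2.58% and 3.98%.

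AP-1 strings split the EtOH no-lead nuclei. Each library was divided at the midpoint between the AP-1 medians of its progenitor-list and its hormone-list nuclei, at 2.28% in DOX and 7.98% in EtOH. Above it lay 143 of 504 EtOH no-lead nuclei (28.4%), against 5.41% of progenitor-list, 86.9% of hormone-list and 23.5% of basal-list nuclei. Ties of the hormone-sensing and basal lists were above it in 51.8%, and ties of progenitor and basal in 9.96%. The EtOH nuclei above it had 56.4% hormone-list neighbours and a median GATA deviation of 2.75%, and those below it 6.98% and -9.37%. Median counts were 73753 and 74556, so the sides were alike in depth.

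In DOX the sides lay closer together. There, 135 of 489 no-lead nuclei (27.6%) were above the midpoint, against 21.7% of progenitor-list, 62.9% of hormone-list and 36.2% of basal-list nuclei. The nuclei above it had 22.2% hormone-list neighbours and a GATA median of 7.59%, and those below it 9.17% and 6.09%. The limits were set on these nuclei, so the split is a description.

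**Figure D5:**
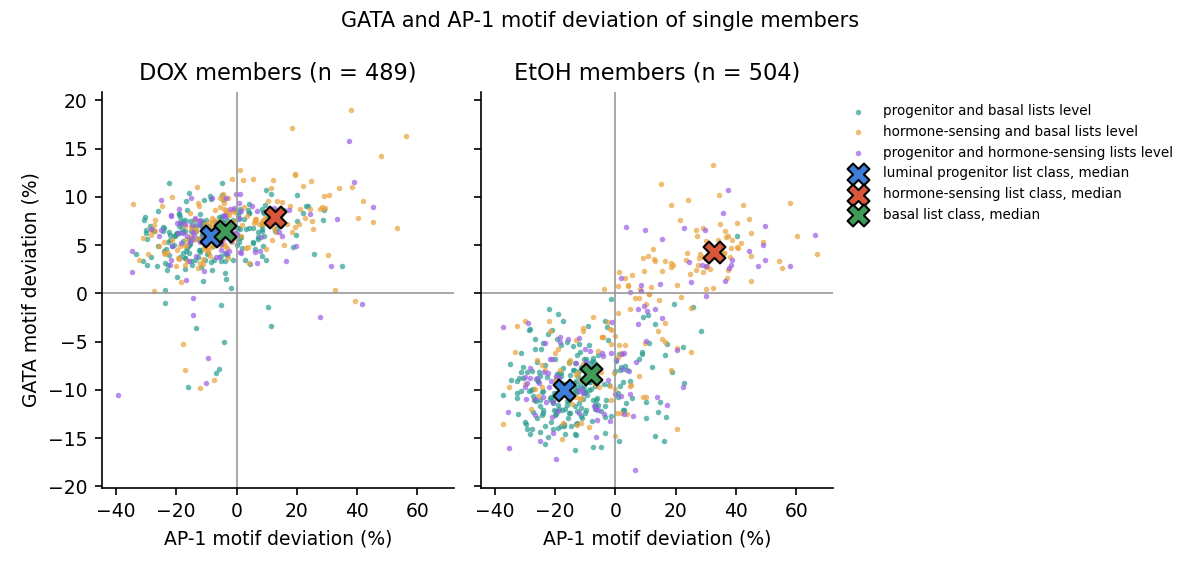
GATA deviation (y axis, percent) against AP-1 deviation (x axis, percent) of each no-lead nucleus, by library, with 1 point per nucleus coloured by its tie and crosses at the medians of the single-list classes. A GATA deviation over 0 was found in 95.7% of DOX and 20.6% of EtOH nuclei, and EtOH nuclei with high AP-1 values were those with the higher GATA values.

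Single regions carried the same difference. Of 122777 shared regions with at least 100 counts over both libraries, 7955 (6.48%) were at least 2-fold higher in DOX than in EtOH no-lead nuclei and 9689 (7.89%) at least 2-fold lower. Regions within 1 kb of a transcription start passed either limit in 4.68% and distal regions in 16.6%. The share of higher and of lower regions was 8.33% and 8.39% in progenitor-list, 7.72% and 7.38% in hormone-list and 6.53% and 5.59% in basal-list nuclei. The shares of no-lead nuclei were thus of the same order as those of the classes beside them.

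Of the regions compared, 39678 (32.3%) held a GATA string. Among them 13.7% were higher in DOX and 6.25% lower, against 3.03% and 8.68% of regions without one. The median log2 ratio was 0.08 with and -0.10 without a string. RUNX strings went with more higher regions (11% against 5.87%), FOX strings with more lower regions (14.4% against 6.68%), and AP-1 strings with more lower regions (10.8% against 7.34%). Hormone-list nuclei, the class with the most open FOX and AP-1 regions, made up 21% of the neighbours of EtOH and 12.8% of those of DOX no-lead nuclei, and the part of this in the FOX and AP-1 values was not tested. CTCF regions were called in 0.793% and 0.590%.

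The DNA of the 2 regions with the highest ratio shows what these sites look like. Each line gives the central 300 bases on the plus strand of GRCm38, with the GATA strings (AGATAA or TGATAA or AGATAG or TGATAG on either strand) in capitals.
chr10:24446171-24446470: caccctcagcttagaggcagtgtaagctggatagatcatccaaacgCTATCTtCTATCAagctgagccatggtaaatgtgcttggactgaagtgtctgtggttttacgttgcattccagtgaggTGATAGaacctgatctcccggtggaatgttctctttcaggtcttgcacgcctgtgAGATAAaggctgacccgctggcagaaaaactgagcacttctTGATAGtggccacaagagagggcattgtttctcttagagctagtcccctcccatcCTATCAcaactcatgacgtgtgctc
chr6:54782027-54782326: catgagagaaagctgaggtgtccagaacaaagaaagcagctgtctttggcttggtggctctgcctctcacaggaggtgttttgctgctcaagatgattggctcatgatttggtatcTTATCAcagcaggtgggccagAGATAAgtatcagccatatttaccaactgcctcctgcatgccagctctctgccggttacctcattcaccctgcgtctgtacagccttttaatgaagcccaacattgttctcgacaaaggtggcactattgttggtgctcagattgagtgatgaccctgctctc

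The first window lies in the intergenic region chr10:24445839-24446802, 149121 bp from the start of Ccn2, and holds 6 GATA strings with 1 TEAD and 1 SOX string. It had 29.3 CPM in DOX no-lead nuclei (1289 counts) and 3.27 CPM in EtOH no-lead nuclei (123 counts), a log2 ratio of 3.17 (2.78 to 3.55). Progenitor-list, hormone-list and basal-list nuclei had 30.5, 20.9 and 29.8 CPM in DOX and 1.56, 3.39 and 3.49 CPM in EtOH. All classes were thus high in DOX and low in EtOH, the no-lead nuclei among them.

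The second window lies in the intergenic region chr6:54781719-54782634, 34739 bp from the start of Znrf2, and holds 2 GATA strings, 2 SOX strings and 1 FOX string. No-lead nuclei had 30.3 CPM in DOX and 3.54 in EtOH, a log2 ratio of 3.10 (2.74 to 3.50). The single-list classes ranged from 18.8 to 29.8 CPM in DOX and from 1.47 to 4.04 CPM in EtOH.

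The 2 regions with the lowest ratio had a lineage pattern in EtOH and were lower in DOX within progenitor-list and basal-list nuclei too. At chr2:148889753-148890723, which overlaps an exon and lies 14546 bp from the start of Cst3, no-lead nuclei had 2.57 CPM in DOX and 16.1 in EtOH (log2 ratio -2.64, -3.09 to -2.24). In EtOH the level was 24.1 CPM in progenitor-list, 2.30 in hormone-list and 13.8 in basal-list nuclei. At chr7:19388691-19389658, 972 bp from the start of Ercc2, they had 5.17 and 24.2 CPM (-2.23, -2.53 to -1.92), with 32.1, 3.13 and 18 CPM in the EtOH classes. In DOX the progenitor-list, hormone-list and basal-list nuclei had 4.17, 1.69 and 2.61 CPM in the chr2 region. In the chr7 region they had 7.52, 2.70 and 5.71 CPM. In both regions EtOH hormone-list nuclei were below the level of DOX no-lead nuclei, and EtOH progenitor-list nuclei were the highest. These windows held 0 and 1 GATA strings.

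Among genes, 445 of 17216 (2.58%) were at least 1.5-fold more accessible in DOX than in EtOH no-lead nuclei and 417 (2.42%) were at least 1.5-fold less. Jhy, needed for ependymal cilia, had 28.4 CPM in DOX and 6.62 in EtOH (log2 ratio 2.10, 1.83 to 2.40), although the regions within 1 kb of its start had a ratio of 0.18. Dpysl4, a cytoskeletal gene of the CRMP family, had 33.7 and 9.33 CPM (1.85, 1.61 to 2.09). The lipid desaturase gene Scd4 had 23.9 and 6.65 CPM, and Cntn4, a neuronal adhesion gene, 21.7 and 7.28. The open reading frame 1700034J05Rik had 14.1 and 5.32 CPM. In all 5 genes the 3 single-list classes were also higher in DOX: Jhy had 29.4, 18.1 and 31.6 CPM in DOX and 7.40, 3.8 and 8.0 in EtOH.

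The lowest ratios were those of Cdhr4, a cadherin-related gene, Lalba, which encodes the milk protein alpha-lactalbumin, Tmc3, Twist2 and C6. Lalba had 9.38 CPM in DOX and 23.6 in EtOH no-lead nuclei (-1.33, -1.58 to -1.09), and progenitor-list nuclei went the same way with 12.2 and 32.8 CPM. Cdhr4 had 4.74 and 12.2 CPM (-1.37), with ratios of -0.68 with equal weight per gene, -0.90 at a lead limit of 1.1, -0.93 with scores over shared regions and -0.99 after thinning. C6, a complement gene, differed by -1.24 with EtOH levels of 21 CPM in progenitor-list and 3.95 in hormone-list nuclei. Twist2, a transcription factor of mesenchymal cells, had 7.65 and 18.2 CPM (-1.25). Its highest level was in hormone-list nuclei, at 17.4 CPM in DOX and 31.5 in EtOH. Progenitor-list nuclei had 5.88 and 14.1 CPM over Twist2, and basal-list nuclei 6.18 and 12.9. Tmc3 differed by -1.29, and by -2.18 near its start.

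The lists behind the rule hardly differed between the libraries in no-lead nuclei. None of 5 progenitor, 6 hormone-sensing or 6 basal genes passed the 1.5-fold limit in either direction, with median log2 ratios of -0.03, 0.05 and 0.00. Since the rule holds these lists in balance within a nucleus, this is a description. Of the 6 immune genes of the rule, 3 had enough counts and none passed. The held-out lists had few calls. Of 6 progenitor genes with enough counts, Ltf, which encodes lactoferrin, was higher (9.68 and 3.24 CPM, 1.58) and Lalba lower. Of 7 hormone-sensing genes only Ly6a was lower (3.37 and 6.22 CPM, -0.88), and of 7 basal genes only the keratin gene Krt5 was higher (6.44 and 4.25 CPM, 0.60). The contractile gene Acta2 had 17.9 and 18 CPM.

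Lists of other programmes had 1 or 2 calls each, to be read against the 2.58% of all genes that were higher and the 2.42% that were lower. Of 10 pan-epithelial genes the claudin gene Cldn4 was higher, with 42.7 CPM in DOX and 24.2 in EtOH (0.82, 0.65 to 0.98). In EtOH its level was 47.3 CPM in hormone-list and 18.2 in progenitor-list nuclei, and in DOX it was 47.0 CPM in hormone-list, 43.8 in progenitor-list and 37.4 in basal-list nuclei, so the higher DOX level was found in the progenitor-list and basal-list nuclei too. Of 7 milk genes Lalba and Wap were lower and none was higher, Wap with 2.05 and 3.91 CPM (-0.93), and the median of the list was -0.16. Of 10 genes of the mesenchymal transition the intermediate filament gene Vim was higher, with 45.6 and 25.5 CPM (0.84, 0.68 to 1.00), and Twist2 lower. The median of that list was 0.04. Its gene Zeb2 stood at 0.35, and at 0.65 within 1 kb of its start.

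Of 10 fetal and stem-associated genes the tetraspanin gene Tspan8 was higher, with 50.9 and 26.4 CPM (0.95, 0.79 to 1.1), and the keratin gene Krt6a lower, with 6.01 and 10.7 CPM (-0.83). Of 7 squamous genes the transglutaminase gene Tgm3 was higher, with 19.5 and 13.0 CPM (0.59), and its relative Tgm1 lower, with 11.5 and 25.9 CPM (-1.17, -1.40 to -0.95). Krt6a and Tgm1, like Twist2, were highest in EtOH hormone-list nuclei, at 24.2 and 45.4 CPM. Twist2 was lower in DOX within progenitor-list and basal-list nuclei too. The share of hormone-list neighbours was also smaller in DOX, and its part in the values of these 3 genes was not tested.

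Genes of the YAP, SRF and AP-1 programmes and of the cell cycle had 1 call in all over gene bodies and the 2 kb upstream. Of 16 YAP targets 1 was higher, the stretch-responsive Ankrd1 with 12.5 and 7.87 CPM (0.66), and the median was 0.06. Within 1 kb of its start Ankrd1 stood at 1.82. None of 17 SRF/MRTF targets passed, with Fhl2 at 0.51 and the smooth muscle gene Cnn1 at -0.42 as the extremes. None of 10 AP-1 genes passed, with Atf3 highest at 0.39 and Fos at 0.04. Within 1 kb of the start Atf3 did pass, at 0.81, and the other AP-1 genes ranged from -0.28 (Batf) to 0.23 (Maff). The 10 cell cycle genes ranged from -0.08 to 0.19, with the proliferation marker Mki67 at 34.5 and 33.9 CPM. None of the tested immune, lymphocyte, fibroblast, endothelial or adipocyte genes passed either. Within 1 kb of their starts Tek (1.11) and Cd3e (0.79) were over the limit, and Pecam1 (-0.69) and Plin1 (-0.61) were lower by more than it.

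Lists taken from the study had shares of calls at or below those of all genes. Of 200 tested luminal progenitor genes (207 listed), 4 were higher and 2 lower. Of 291 tested luminal mature genes (318 listed), 3 were higher and 4 lower. Of 83 actin-related TRPS1 targets only Myom2 passed, with 1.28 and 3.19 CPM (-1.32), and its highest level was 17.8 CPM in EtOH hormone-list nuclei. The medians of these lists were 0.00, 0.01 and 0.01.

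The genes the study centred on differed by less than 1.5-fold. Accessibility over Trps1 was 173 CPM in DOX and 154 in EtOH no-lead nuclei (0.16, 0.09 to 0.24), with 145 to 182 CPM across the single-list classes in DOX and 138 to 161 in EtOH. A hairpin acts on the RNA, so these counts do not measure the knockdown. The matricellular YAP target Ccn2 had 36.0 and 28.7 CPM (0.33, 0.17 to 0.49), although the region 149121 bp from its start differed by 3.17, and Ccn1 stood at 0.08. Kit (-0.15), Elf5 (-0.03), Krt8 (0.15), Krt14 (0.17), the luminal regulator Gata3 (-0.02), Rhoa (-0.06) and Sox4 (0.11) were close to 0. Within 1 kb of its start Elf5 stood at 0.31.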

How the data were processed

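Primary organoid nuclei were profiled with 10x single-cell ATAC. The authors deposited, per library, whole-number counts of transposition events per peak and nucleus from cellranger-atac 2.0.0 (per the file headers) on mm10, with peak coordinates, called in each library separately. Only 1 library per group exists, so no test was made. Members and gene lists were chosen with earlier results of these data known.

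Overlapping peaks (1 bp) were merged into 275294 regions, of which 174940 held peaks of both libraries. CPM is counts scaled to 1000000 counts in those shared regions. Genes were taken from GENCODE M21 on GRCm38, as gene body plus 2 kb. The 197 shared regions on genes of the rule were left out of the range, mixture and neighbour steps. Neighbours used TF-IDF components 2 to 30. Genes were called at 1.5-fold and regions at 2-fold, with at least 100 counts. In the range step these were counts of the nuclei being tested. Log2 intervals are exact conditional binomial, share intervals Clopper-Pearson and levels exact Poisson, on counts divided by 2. Named genes were those furthest from 0 in each list, the study's own genes, and the 5 highest and 5 lowest ratios of each comparison. Those ratios were taken among genes with at least 200 counts per library. A few further list genes were added after their values were seen. The 7 named regions had the highest or lowest ratio of DOX over EtOH or stood above all classes in both libraries. No doublet caller was run.

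Motif strings were searched on both strands of the central 300 bases of each region: AGATAA or TGATAA or AGATAG or TGATAG for GATA (34.5% of shared regions), TGAGTCA and TGACTCA for AP-1 (16.4%), TGTTTAC or TATTTAC or TGTTTGC for FOX (16.0%), TGTGGTT and TGCGGTT for RUNX (12.4%), ACATTCC for TEAD (6.78%), ACAAAGG or ACAATGG or AACAATG for SOX (17.2%), AACCGGTT or AACAGGTT or AACCTGTT for GRHL (1.82%), CATGNNNNNNCATG for p63 (0.828%), GAGGAAGT for PU.1 (4.68%), CTCF by its core (3.55%), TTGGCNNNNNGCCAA for NFI (0.123%), CCGGAAG or ACAGGAAG or CCAGGAAG for ETS (13.0%), TTCCNGGAA for STAT (1.43%), GNACANNNTGTNC for steroid receptors (0.638%), GCCNNNGGC for TFAP2 (12.7%) and the SRF CArG box (1.58%). Strings can overlap. Expected counts came from 10 GC bins.

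Python 3.11.15, NumPy 2.4.6, SciPy 1.17.1, pandas 2.3.3, scikit-learn 1.9.0 and bedtools 2.31.1 were used. The calls were tested on simulated data. Alternatives covered the rule's limits and weights, depth, region minimum, overlap, scaling and motif background.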

Additional observations from a re-analysis of the deposited data

How the results depend on the processing

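No paired analysis was possible because DOX and EtOH hold 1 library each. The share of no-lead nuclei among non-immune nuclei was higher in DOX than in EtOH under every alternative run. It was 18% and 10.8% at a lead limit of 1.1, 54.3% and 37.6% at 1.4, 35.1% and 22.8% with scores over shared regions, and 28.3% and 21.8% after thinning. Equal weight per gene gave 26.3% in DOX, and scores over the mean of the own library gave 22.9% in EtOH.

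The GATA difference of 12.2 points ranged from 10.7 to 11.9 where it moved: 11.8 and 11.9 at limits of 1.1 and 1.4, 11.3 with shared regions, 11.6 with equal weights, 10.7 after thinning, 11.6 with own-library means and 11.9 without GC bins. The 7955 higher regions became 5012, and the 9689 lower ones 4161, at a minimum of 200 counts, and the lower ones 5338 at a limit of 1.1.

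Regions outside the range of the classes were 0.0555% in DOX at a limit of 1.1, 0.179% in DOX and 0.0473% in EtOH at 1.4, 0.413% and 0.157% at a minimum of 50 counts, and 0.0113% and 0% at 200. Own-library means gave 0.107% in DOX, and equal weights 0.00864% and leaving out the deepest nuclei 0.0387% in EtOH. The 13 genes below the 3 classes were 2 at a limit of 1.1 and with own-library means, 1 with shared regions and with equal weights, and 0 after thinning.

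No-lead nuclei without a lineage majority among neighbours were 65.9% and 18.7% at a limit of 1.1, 90.0% and 49.5% at 1.4, and 78.9% and 36.9% with own-library means, for DOX and EtOH. In EtOH they were also 22.0% with equal weights, 38.7% after thinning and 23.2% at a minimum of 40000 counts. The other 104 values stayed within their error, and of the named genes' values 30 moved beyond their interval and 320 did not. Leaving aside values near gene starts, 4 of the named genes close to 0 changed sign under some alternatives. They were Krt8 (0.15, down to -0.01), Rhoa (-0.06, up to 0.03), Gata3 (-0.02, up to 0.07) and H1fnt (-0.13, up to 0.07). In regions within 1 kb of its start Elf5 also changed sign, from -0.03 to 0.31. No called value turned. The cause of these changes was not tested. The few counts per nucleus on each list limit the assignment of single nuclei, and the single library per group limits every difference between DOX and EtOH.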
